A study of Mus musculus with 2 samples.

Results

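A set of 7 genes of ion and transmitter handling, Ano1, Slc12a2, Slc4a4, Piezo1, Piezo2, Gria2 and Gad1, was followed through the mouse mandibular epithelium. They had been selected because earlier counts of the same cells showed regional levels for them, so their levels by region are given as a description and carry no test. They are 7 of the 27998 genes listed at embryonic day 12.0 (E12.0) and of the 31053 listed at E9.5, and all 7 were found at both stages. The E12.0 library held GFP-positive epithelial cells sorted from the mandibles of 6 pooled embryos of a single litter after Dispase and TrypLE, and the E9.5 library unsorted cells of whole mandibular arches from 8 pooled embryos of a litter after TrypLE. All embryos carried K14Cre;R26mT/mG, in which a Cre driven by the Keratin 14 promoter switches a membrane reporter from tdTomato to GFP, so that at E12.0 a cell entered the library only if that promoter had been active in it or its forebears. No treatment or mutant was compared, and each stage is 1 library.

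Ion channels and transporters set the salt, water, pH and membrane voltage of a cell. In epithelia, NKCC1 (encoded by Slc12a2) loads chloride into the cell, the calcium-activated channel anoctamin 1 (Ano1, also TMEM16A) lets it out, and the cotransporter NBCe1 (Slc4a4) carries sodium with bicarbonate, a trio best known from glands that secrete fluid. Piezo1 and Piezo2 are cation channels that open when a membrane is stretched, Gria2 encodes the AMPA receptor subunit that makes the receptor poorly permeable to calcium, and Gad1 encodes the glutamate decarboxylase GAD67, which makes the transmitter GABA.

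In the mouse genome GRCm38, with the GENCODE M21 gene models, all 7 are protein coding genes. Ano1 (ENSMUSG00000031075) lies at chr7:144588549-144751974 on the minus strand and Slc4a4 (ENSMUSG00000060961) at chr5:88886818-89239653 on the plus strand. Piezo1 (ENSMUSG00000014444) lies at chr8:122481698-122551329 and Gria2 (ENSMUSG00000033981) at chr3:80681450-80802835, both on the minus strand. Gad1 (ENSMUSG00000070880) lies at chr2:70553072-70602014 on the plus strand. The other two are Slc12a2 (ENSMUSG00000024597) and Piezo2 (ENSMUSG00000041482).

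The promoters of the members with the largest folds in a zone are shown, as 250 bases before and 50 after a RefSeq start site in GRCm38.p6, 5′ to 3′ on the gene's strand. The Gad1 window is chr2:70561879-70562178 and the Ano1 window chr7:144738524-144738823, and both lie within the GENCODE gene. Capitals mark the motif matches, which are TAATCC (PITX) on the opposite strand at position -203 from the Gad1 start, and GCCNNNGGC (AP-2) at position -22 from the Ano1 start.
Gad1: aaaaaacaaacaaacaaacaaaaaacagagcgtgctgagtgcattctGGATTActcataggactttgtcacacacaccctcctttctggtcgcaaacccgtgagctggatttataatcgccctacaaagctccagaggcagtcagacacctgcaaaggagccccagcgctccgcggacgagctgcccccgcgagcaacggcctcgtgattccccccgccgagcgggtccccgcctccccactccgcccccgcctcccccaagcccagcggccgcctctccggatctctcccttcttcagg
Ano1: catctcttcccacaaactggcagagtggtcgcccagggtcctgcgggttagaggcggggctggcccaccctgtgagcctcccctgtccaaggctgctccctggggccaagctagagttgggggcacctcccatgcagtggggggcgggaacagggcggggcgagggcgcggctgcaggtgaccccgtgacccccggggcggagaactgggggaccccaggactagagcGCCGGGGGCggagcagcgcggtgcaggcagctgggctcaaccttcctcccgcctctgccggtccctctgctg
These windows were 60% (Gad1) and 71.7% (Ano1) G and C, against a median of 52.7% over 32851 mouse promoters of the same length. Motifs were searched on both strands. The TCF/LEF letters CTTTGA were held by 16% of all promoters, the PITX letters by 7.06% and the AP-2 letters by 16.6%. The GATA motif was searched as AGATAA (11.2% of promoters), the SOX motif as ACAATG (12.6%) and the GRHL motif as AACCGG (6.83%). The windows of Slc4a4 (2 start sites), Piezo1 and Gria2 held none of these motifs.

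After cells with fewer than 200 or more than 5500 genes or over 10% mitochondrial counts were left out, 11355 of 11663 barcodes remained at E12.0, with a median of 6349 UMIs (counted transcript molecules), and 12744 of 14293 at E9.5, with a median of 13460.5 UMIs. Their UMIs summed to 77936364 and 166191431. Of the kept barcodes, 44 occurred in both libraries. The E12.0 cells were epithelial by their markers, with Epcam in 84.0% and Krt14 in 86.9% of cells, while the mesenchyme markers Twist1, Prrx1, Prrx2, Pdgfra, Col1a1 and Col3a1 together came to 3.50 CPM (a gene's UMIs summed over a group's cells, scaled to a group total of 1000000). Zones were defined by UMIs of marker genes, at least 4 of Gjb2 and Gjb6 together, or at least 2 of Wnt9b, Pthlh, Shh, Irx1 or Dmrt2. In the study, Irx1 marks the dental epithelium, Dmrt2 the epithelium behind it, Shh at E12.0 the initiation knot, a signalling centre of the tooth, and also forming taste buds of the tongue, so that the Shh zone may hold both, and Gjb2, Gjb6 and Wnt9b are anterior. No position was measured here, so zones carry the name of their gate genes.

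The zones held 819 (Gjb2/Gjb6), 1417 (Wnt9b), 175 (Pthlh), 258 (Shh), 672 (Irx1) and 209 cells (Dmrt2). In all 3239 cells were in a zone, 293 of them in 2 zones and 9 in 3 or more, most often Gjb2/Gjb6 with Wnt9b (185 cells), and 8116 were in none. Cells in a zone were deeper, with medians between 6962 and 7964.5 UMIs against 6032.5 outside, and held more barcodes called doublets by Scrublet, 8.61% to 12.4% against 4.45%; the part of depth and doublets in the levels below was not tested beyond the values given. Levels are CPM of summed UMIs with exact 95% Poisson intervals, and shares of cells have exact Clopper-Pearson intervals. Both cover counting error only, since no second library shows how far embryos or preparations differ. The CPM intervals also leave out the spread between cells. Over all kept E12.0 cells the variance over mean of UMIs per cell reached 4.845, for Slc12a2, where Poisson counts would give 1.

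A member was counted as higher or lower in a zone when its CPM, with 5 CPM added, was at least 1.5 times, or at most 1 over 1.5 times, the value in the remaining kept cells, and when either side reached 5 CPM. By this measure 8 of 42 member and zone combinations were higher and 14 lower, with 38 reaching the minimum. Each zone had at least 1 higher member, and 6 of the 7 genes were higher somewhere. The zones fell into a set in which Piezo2 was higher and Ano1 and Slc12a2 lower (Gjb2/Gjb6 and Wnt9b), and a set in which Piezo2 was lower (Shh, Irx1 and Dmrt2), with Pthlh cells in neither.

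Over all genes that reached the minimum, higher calls were 2.60% in the Gjb2/Gjb6 zone and lower calls 3.53%, beside 2 and 3 of 6 members. The shares were 1.11% and 2.24% in the Wnt9b zone (1 and 2 of 6 members), 1.69% and 2.71% in the Pthlh zone (2 and 1 of 6) and 6.62% and 5.16% in the Shh zone (1 and 4 of 7). They were 2.07% and 3.41% in the Irx1 zone (1 and 2 of 7) and 3.48% and 3.78% in the Dmrt2 zone (1 and 2 of 6). Across the 6 zones, 13.2% of all genes were higher in at least 1. Nothing is read from these member counts, since regional level chose the members.

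**Figure D1:**
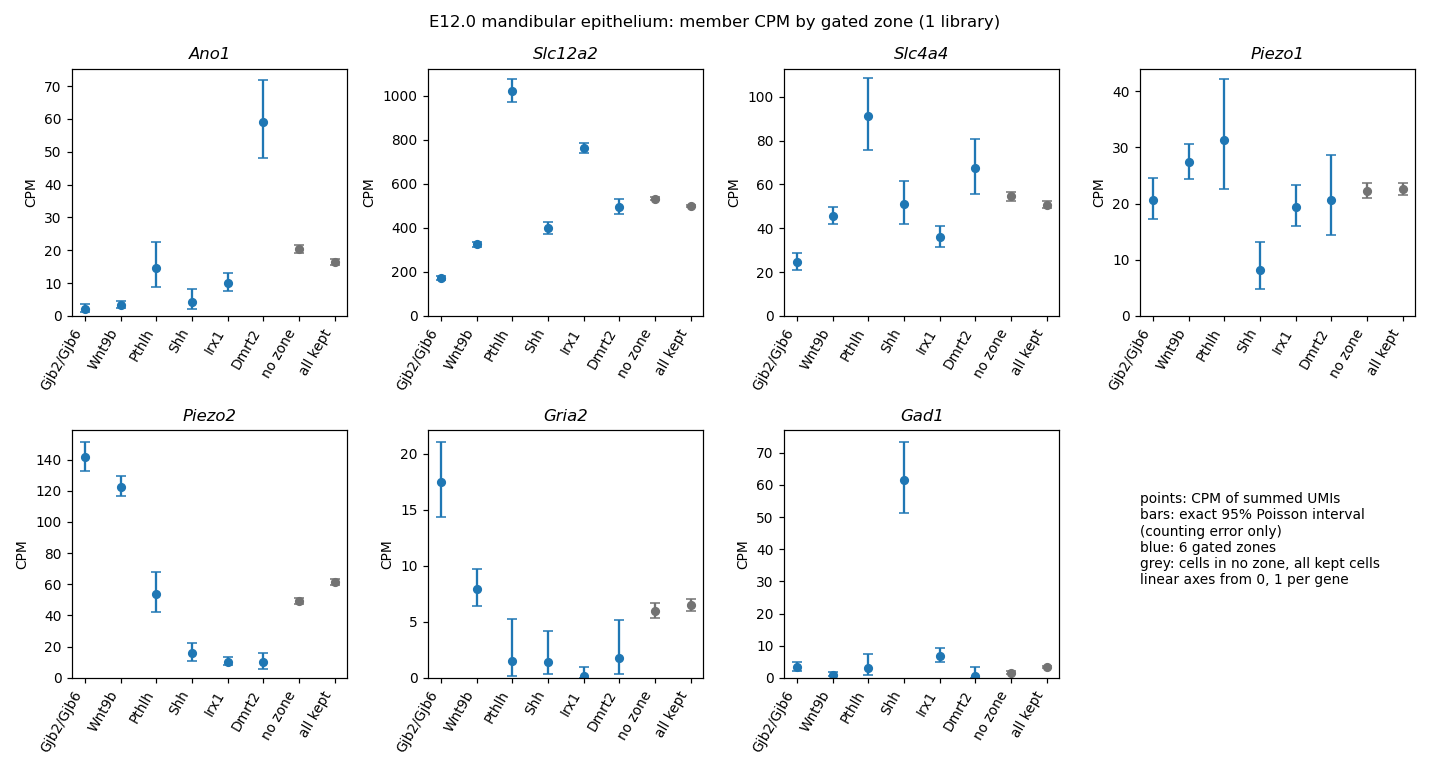
Level of each of the 7 genes (CPM of summed UMIs, vertical axis of each panel) in the 6 E12.0 zones, with exact 95% Poisson intervals as bars that cover counting error only. Ano1 stood highest in Dmrt2 cells at 59.0 CPM, Slc12a2 in Pthlh cells at 1022 CPM, Piezo2 in Gjb2/Gjb6 cells at 142 CPM and Gad1 in Shh cells at 61.6 CPM.

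Among the chloride and bicarbonate genes, Ano1 was highest in Dmrt2 cells. It came to 59.0 CPM there (48.0 to 71.8, from 100 UMIs), 14.6 in Pthlh, 10.0 in Irx1, 4.33 in Shh, 3.35 in Wnt9b and 2.2 in Gjb2/Gjb6 cells. The Dmrt2 level was 3.80-fold that of all other cells (3.07 to 4.66) and differed from the next zone beyond counting error. Pthlh and Irx1 cells did not differ beyond it, Irx1 cells stood above Shh cells, and the 3 lowest zones were not separated. An Ano1 UMI was found in 32.5% of Dmrt2 cells (26.2 to 39.3) and in 1.34% of Gjb2/Gjb6 cells, whose median depths were 7394 and 6962 UMIs. With each cell thinned to 4100 UMIs these shares were 21.1% and 0.252%.

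The Dmrt2 zone nevertheless held few of the Ano1 cells. Of 237 cells with at least 2 Ano1 UMIs, 23 were in it and 84.0% were in no zone at all. Much of the remainder lay among the 3198 cells with at least 2 UMIs of Isl1 and Tlx1, transcription factors that here overlap the zones, in which Ano1 reached 28.7 CPM (26.7 to 30.9). Dmrt2 cells with Isl1/Tlx1 had 60.4 CPM of Ano1 (46.2 to 77.6) and those without 57.0 CPM (40.5 to 77.9). Isl1/Tlx1 cells outside the Dmrt2 zone had 27.4 CPM and cells with neither 9.82 CPM. The Ano1 level was thus ordered as Dmrt2 cells of either kind, then Isl1/Tlx1 cells, then the rest, and counting intervals separated these 3 levels.

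Ano1 did not climb with further Dmrt2 UMIs. It was 13.7 CPM in cells with no Dmrt2 UMI, 60.2 with 1, 61.1 with 2 or 3 and 49.9 with 4 to 7 (28.5 to 81.1), so that cells just outside the gate stood level with those inside. Without the cells called doublets, the Dmrt2 zone had 64.6 CPM (52.2 to 79.0). The mesenchyme markers summed to 10.6 CPM in the Dmrt2 zone against 3.50 over all cells, with 4 of the 6 at 0, and the epithelial markers to 1251 against 1833; their part in the Ano1 level was not tested.

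Slc12a2 was found in most epithelial cells, with a UMI in 75.6% of all kept cells at 499.9 CPM. It was highest in Pthlh cells at 1022 CPM (969 to 1077, from 1403 UMIs), followed by Irx1 at 763 (741 to 786), Dmrt2 at 494, Shh at 397, Wnt9b at 325 and Gjb2/Gjb6 at 171 CPM (161 to 182). Every step in this order was larger than counting error, which leaves out the spread of this gene between cells. The folds over all other cells were 2.08 in Pthlh (1.97 to 2.2), 1.59 in Irx1 (1.55 to 1.65), 0.614 in Wnt9b and 0.324 in Gjb2/Gjb6 cells. Against the cells in no zone alone, the Irx1 ratio with 5 CPM added was 1.43, short of the 1.5 that was counted. By share of cells with a UMI the range ran from 93.1% of Pthlh to 55.6% of Gjb2/Gjb6 cells, and after thinning from 91.7% to 41.4%.

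The Pthlh level of Slc12a2 did not differ beyond counting error with and without Irx1, at 1013 CPM (878 to 1163) in the 23 cells of both zones and 1023 (966 to 1083) in the other 152. Irx1 cells outside the Pthlh zone had 754 CPM. The gene was graded with both markers, from 462 CPM with no Pthlh UMI through 795 with 1 to 1026 with 2 or 3, and from 453 CPM with no Irx1 UMI through 703 and 728 to 886 CPM with 4 to 7. It was also high outside the zones, at 718 CPM in Isl1/Tlx1 cells that were in none of them against 438 CPM in the remaining cells. In the opposite direction, cells with no Gjb2 or Gjb6 UMI had 598 CPM, cells with at least 2 UMIs of Gjb2 and none of Gjb6 217, the converse 159 and cells with at least 2 of each 154 CPM.

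Slc4a4 had its highest level in Pthlh cells as well, at 91.0 CPM (75.8 to 108, from 125 UMIs), a fold of 1.82 over all other cells (1.51 to 2.18). Next came Dmrt2 cells at 67.3, Shh at 51.1, Wnt9b at 45.6, Irx1 at 36.0 and Gjb2/Gjb6 at 24.7 CPM (21 to 28.9), where Shh and Wnt9b cells did not differ beyond counting error and the Dmrt2 level exceeded that of Shh cells only at its limit (ratio interval from 1.00 to 1.73). A Slc4a4 UMI was found in 44.0% of Pthlh cells and 15.9% of Gjb2/Gjb6 cells, and after thinning in 30.2% and 7.31%. With gates also read from UMIs thinned to 4100, and so fewer cells, the Pthlh ratio with 5 CPM added was 1.45. That is short of the 1.5 that was counted, against 1.75 unthinned. The 2 carriers parted in Irx1 cells, in which Slc12a2 was higher and Slc4a4, at 34.5 CPM in those outside the Pthlh zone (29.8 to 39.7), stood below its level of 50.7 CPM over all cells. They ran together in Isl1/Tlx1 cells, where Slc4a4 reached 71.9 CPM over the gate and 77.2 CPM in the part of it outside all zones, against 42.9 CPM in the remaining cells. In situ hybridization in the study placed Slc4a4 among markers of the medial epithelium in front of the incisor.

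**Figure D2:**
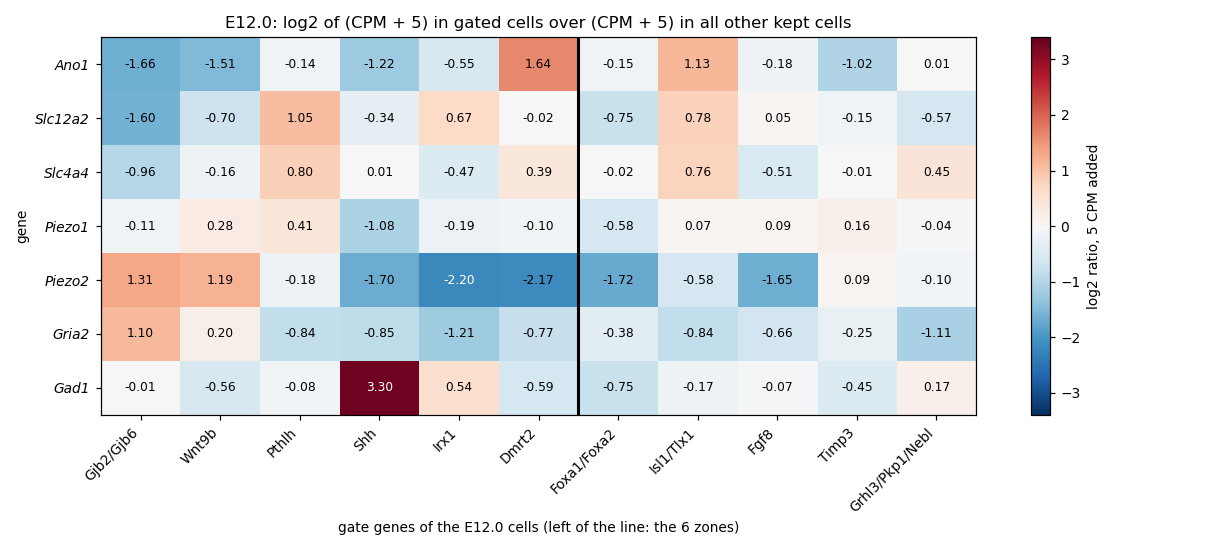
Ratio of each gene's CPM in a group of E12.0 cells to that in all other kept cells, 5 CPM added to both, on a log2 scale, for the 6 zones and for further gates. Gad1 in Shh cells stands apart at a ratio of 9.83, followed by Ano1 in Dmrt2 cells at 3.12 and Piezo2 in Gjb2/Gjb6 cells at 2.48.

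The stretch-activated channels differed from each other. Piezo2 was highest in Gjb2/Gjb6 cells at 142 CPM (133 to 151, from 901 UMIs) and in Wnt9b cells at 123 CPM (116 to 129), folds of 2.61 (2.43 to 2.81) and 2.41 (2.26 to 2.56) over all other cells. It was 53.9 CPM in Pthlh, 15.9 in Shh, 10.4 in Irx1 and 10.0 in Dmrt2 cells, the last 3 not separated by counting error. A Piezo2 UMI was found in 56.0% of Gjb2/Gjb6 and 53.2% of Wnt9b cells but in 6.85% of Irx1 cells, the deepest zone at a median of 7964.5 UMIs. Thinned to 4100 UMIs, the shares were 39.2%, 36.6% and 3.17%. With at most 5% mitochondrial counts the ratio with 5 CPM added went from 2.48 to 3.66 in Gjb2/Gjb6 cells and from 2.28 to 3.84 in Wnt9b cells.

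Piezo2 was graded with both anterior markers. By Gjb2/Gjb6 it was 38.7 CPM with no UMI, 104 with 1, 127 with 2 or 3, 135 with 4 to 7 and 166 CPM with 8 or more (145 to 188), and by Wnt9b it was 37.4, 102, 121 and 129.9 CPM with 0, 1, 2 or 3 and 4 to 7 UMIs. Cells with at least 2 UMIs of Gjb6 and none of Gjb2 had 148 CPM (125 to 175), the converse 124 (113 to 136) and cells with at least 2 of each 146 CPM (133 to 159.6), and these intervals overlapped. Of 1200 cells with at least 2 Piezo2 UMIs, 354 were in the Wnt9b zone, 246 in the Gjb2/Gjb6 zone and 52.5% in no zone.

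Piezo1 was counted as higher in no zone. It was, however, counted in Pthlh cells with gates of 3 UMIs, and with gates and levels from UMIs thinned to 4100. It ran from 31.3 CPM in Pthlh cells (22.7 to 42.2) and 27.4 in Wnt9b cells through 20.7 in Dmrt2, 20.6 in Gjb2/Gjb6 and 19.4 in Irx1 cells, and no neighbours in that order differed beyond counting error. Further apart in it, the intervals of Wnt9b (24.4 to 30.6) and Irx1 cells (16.0 to 23.3) did not overlap. Shh cells stood lowest, at 8.19 CPM (4.77 to 13.1, from 17 UMIs), a fold of 0.357 against all other cells (0.208 to 0.574). With gates of 1 UMI the Shh ratio with 5 CPM added went from 0.473 to 0.713 and was no longer counted. Its UMIs were spread thinly, with a variance over mean of 1.06 per cell and at most 4 UMIs in a cell, while Piezo2 had 1.97 and reached 10.

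Gria2 was a rare transcript with 505 UMIs in 370 cells. By in situ hybridization at E12.0, the study saw Gria2 as scattered puncta on the ventral mandible and in lateral patches. Gjb2/Gjb6 cells had 17.5 CPM of it (14.4 to 21, from 111 UMIs), 3.18-fold the level of all other cells (2.55 to 3.93), and Wnt9b cells 7.92 CPM. The other 4 zones held 9 Gria2 UMIs in all, 3 in Dmrt2, 2 in Pthlh, 3 in Shh and 1 in Irx1 cells, and could not be ordered by counts of that size. These 4 zones were counted as lower. With at most 5% mitochondrial counts, which left out most kept cells, none of them was, and the Dmrt2 ratio went from 0.584 to 0.909. With gates and levels read from thinned UMIs it was 0.985. A Gria2 UMI was found in 11.6% of Gjb2/Gjb6 cells (9.49 to 14.0) and in 0.149% of Irx1 cells, and after thinning in 7.69% and in none of 662 cells. The counts were uneven, since 49.1% of all Gria2 UMIs were in 113 cells and 1 cell held 9.

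Between the connexins, Gria2 was at 30.9 CPM (20.9 to 44.1, 30 UMIs) in the 138 cells with at least 2 UMIs of Gjb6 and none of Gjb2, and at 15.2 CPM (11.5 to 19.7, 56 UMIs) in the 483 cells of the converse kind. These counting intervals did not overlap, but they treat UMIs of the same cell as independent. The UMIs lay in 20 cells (14.5%) and 34 cells (7.04%), so whether the 2 kinds of cells differ is not settled. Cells with at least 2 UMIs of each had 20.6 CPM and cells with no UMI of either 3.03 CPM. Gria2 was level from 2 Gjb2/Gjb6 UMIs onwards, with 11.8 CPM at 1 UMI, 18.7 at 2 or 3, 17.0 at 4 to 7 and 18.9 at 8 or more. In the cells with both Gjb2/Gjb6 and Wnt9b and no other gate, it was 9.94 CPM, and in those with Gjb2/Gjb6 alone 20.6 CPM.

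Gad1 had the largest fold of the 7 in any zone. It came to 61.6 CPM in Shh cells (51.4 to 73.3, from 128 UMIs), against 6.80 in Irx1, 3.31 in Gjb2/Gjb6, 2.91 in Pthlh, 0.968 in Wnt9b and 0.590 CPM in Dmrt2 cells, the last from 1 UMI. The fold over all other cells was 34.6 (27.0 to 44.5). Shh cells held 48.7% of all Gad1 UMIs with 2.66% of the library's UMIs, and 32 of the 44 cells with at least 2 Gad1 UMIs. A Gad1 UMI was found in 32.6% of Shh cells (26.9 to 38.6) and in 0.635% of Wnt9b cells, with median depths of 7061.5 and 7138 UMIs, and after thinning in 21.7% and 0.218%.

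Gad1 was graded with Shh UMIs. Cells with no Shh UMI had 1.49 CPM, with 1 UMI 15.5, with 2 or 3 46.6, with 4 to 7 67.3 and with 8 or more 83.5 CPM (60.9 to 112), and from 2 UMIs onwards the intervals of neighbouring steps overlapped. Among Irx1 cells, those with no Shh UMI had 3.82 CPM (2.33 to 5.90) and the 37 cells in both zones 44.8 CPM (25.1 to 73.9). Without the cells called doublets, the Shh zone had 69.2 CPM (57.1 to 83.1). The 24 Shh cells with a UMI of Foxa1 or Foxa2, a split chosen after seeing the data, had 9.28 CPM of Gad1 (1.12 to 33.5, from 2 UMIs) and the other 234 had 67.7 CPM (56.4 to 80.6).

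By in situ hybridization on E12.0 mandibles, the study located Gad1 transcripts in the initiation knot. Gad1 is best known from inhibitory neurons, so neuronal markers were read in the same cells. In the Shh zone the 5 neuron markers Tubb3, Elavl3, Elavl4, Stmn2 and Snap25 summed to 83.8 CPM against 8.16 over all kept cells, and in the 44 cells with at least 2 Gad1 UMIs to 66.3 CPM, all of it Tubb3, a tubulin, with the other 4 at 0. The 3 interneuron markers Slc32a1, Gad2 and Dlx6os1 were all at 0 in the Shh zone and in those 44 cells. Markers of periderm, the flat outer layer, summed to 475 CPM in the Shh zone against 212 over all cells, and in the 44 cells Pkp1 and Sfn were the periderm markers that were higher. The 6 epithelial markers summed to 2116 CPM in the zone against 1833. The part of these other marker lists in the Gad1 level was not tested.

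**Figure D3:**
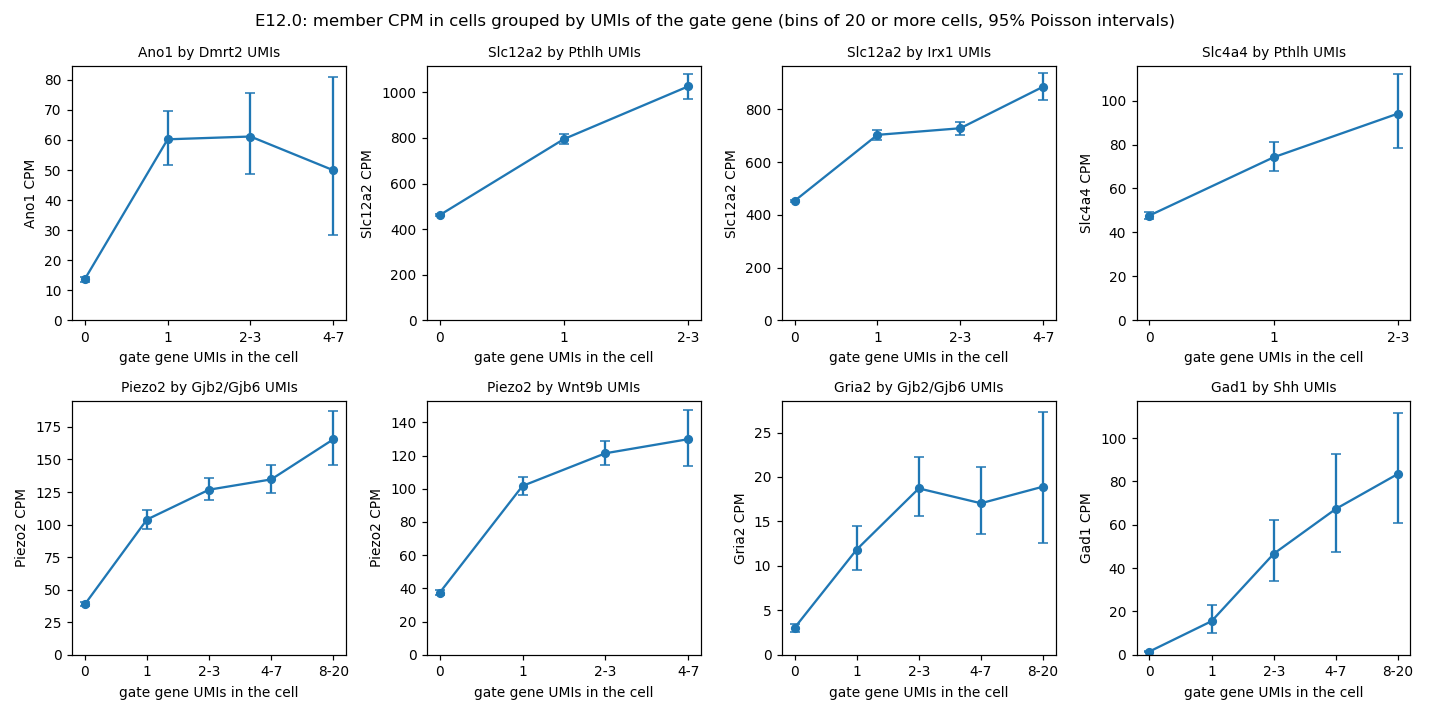
Level of a member (CPM of summed UMIs, with exact 95% Poisson intervals) in E12.0 cells grouped by their number of UMIs of a zone's gate gene. Gad1 goes from 1.49 CPM with no Shh UMI to 83.5 with 8 or more, and Piezo2 from 38.7 to 166 CPM with Gjb2/Gjb6, while Ano1 is level from 1 Dmrt2 UMI onwards at 60.2, 61.1 and 49.9 CPM.

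Genes whose level was most like a member's were sought over 8 exclusive groups (cells in no zone, in 1 zone only, and in Gjb2/Gjb6 with Wnt9b). The measure was Pearson's r of log2 CPM, with 5 CPM added. All genes that reached 20 CPM in a group were read, except the gate genes. These r values describe 8 groups of a single library that share its preparation, and carry no test. Fxyd3, a regulator of the sodium pump, was nearest to Ano1 (r = 0.969), with Scarb2 and 1500009L16Rik after it. Tfap2b, an AP-2 transcription factor that the study places in the anterior epithelium, was nearest to Piezo2 (r = 0.997), followed by Lmo1 (0.993) and Ephb2 (0.989), and Bmp2, a secreted growth factor, was nearest to Gad1 (r = 0.994). Nog, which encodes the BMP antagonist noggin, was nearest to Piezo1 (r = 0.972). For Slc12a2, Slc4a4 and Gria2 the nearest were Banf1 (0.986), Rybp (0.983) and Ncoa3 (0.976), each differing less between groups than the member did.

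The same question was put to single cells by comparing cells with at least 2 UMIs of a member with cells that had none. Ano1 cells had 369 CPM of Barx1, a homeobox gene, against 52.4 without Ano1, and 276 of Tshz2 against 58.2. Gad1 cells had 708 CPM of Shh against 13, 184 of the WNT inhibitor Wif1 against 3.06 and 283 of Bmp2 against 8.28. Piezo2 cells had 207 CPM of Robo2 against 47.0, 2007 of the chemokine Cxcl14 against 523 and 307 of Lmo1 against 86.0.

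Gria2 cells had 98.7 CPM of Pcdh9, a protocadherin, against 7.41, and 163 of Gjb6 against 33.9. Slc12a2 and Slc4a4 had the same first gene, Unc5c, a netrin receptor, at 46.1 against 14.9 CPM and 62.9 against 27.4 CPM, and for Slc12a2 Isl1 was at 138 against 53.4 CPM. Piezo1 cells differed least, with Cnih2 at 35.5 against 18.9 CPM as the first gene. Cells with at least 2 UMIs of a member were deeper for 6 of the 7 genes, for example a median of 7528 against 6312 UMIs for Ano1, and Gria2 was the exception at 5224 against 6349 UMIs.

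Joint detection was counted in 10331 cells thinned to 4100 UMIs, as the share of cells with a UMI of both genes over the product of the single shares. A ratio above 1 therefore means more joint cells than independent detection gives. The intervals are exact for the joint share and are divided by the product, which is taken as fixed. They are thus not exact for the ratio, and an interval that allows for the observed single shares was not computed. Pairs near the limit could be counted otherwise by such an interval. Of 21 pairs, 4 had an interval above 1, 7 below 1 and 10 included 1. These counts are a description, since regional level chose the members, and no share over other gene pairs was counted. The intervals cover counting error over the cells of 1 library only. Above 1 were Piezo2 with Gria2 at 2.23 (1.78 to 2.76, 83 cells against 37.2 from the product) and the 3 pairs of the chloride and bicarbonate genes. These were Ano1 with Slc4a4 at 1.45 (1.22 to 1.70), Ano1 with Slc12a2 at 1.20 (1.10 to 1.31) and Slc12a2 with Slc4a4 at 1.18 (1.12 to 1.24).

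The pairs below 1 mostly joined these sets. Ano1 and Piezo2 shared 21 cells against 108, a ratio of 0.195 (0.121 to 0.298), and Ano1 with Gria2 5 cells against 12.0, a ratio of 0.417 (0.135 to 0.972). Slc12a2 was at 0.779 with Piezo2 and 0.604 with Gria2, and Slc4a4 at 0.527 with Gria2. Gad1 was below 1 with Ano1 (1 cell against 7.07) and with Piezo2 (9 against 21.9), and all 6 pairs of Piezo1 included 1. Without thinning, however, those of Piezo1 with Slc12a2, Slc4a4 and Piezo2 lay above 1. Piezo1 with Piezo2 also lay above it with at most 5% mitochondrial counts, and Piezo1 with Gad1 lay below it with cells thinned to 6000 UMIs. When 2 UMIs of each gene were needed, Ano1 with Piezo2, Slc12a2, Gria2 and Gad1 no longer had an interval away from 1, and Slc4a4 with Piezo2 lay below it. With at most 5% mitochondrial counts, the intervals of Ano1 with Slc12a2, Gria2 and Gad1 included 1. So did those of Slc12a2 with Piezo2 and of Gria2 with Slc12a2 and Slc4a4, while Slc4a4 with Gad1 lay below 1. Counted with at least 2 UMIs of each gene, Ano1 with Slc4a4 turned to 0.394, Slc4a4 with Gria2 to 1.02 and Piezo2 with Gad1 to 1.78, each with an interval that included 1.

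The pairs were also read with the gates taken into account. When the expected share was taken within each combination of gates, the 7187 cells in no zone included, and summed, 4 pairs stayed above 1 and 4 below. Piezo2 with Gria2 was then at 1.54 (1.23 to 1.91), Ano1 with Slc4a4 at 1.32, Ano1 with Slc12a2 at 1.14 and Slc12a2 with Slc4a4 at 1.15. Ano1 with Piezo2 was at 0.253 (0.157 to 0.387), and the intervals of Ano1 with Gria2, Ano1 with Gad1 and Piezo2 with Gad1 then included 1. In the cells in no zone alone, Piezo2 with Gria2 was at 2.34 (1.66 to 3.21) and Ano1 with Piezo2 at 0.225 (0.131 to 0.359). Inside single zones, Piezo2 with Gria2 was at 1.21 (0.816 to 1.73) in Gjb2/Gjb6 and 1.27 (0.765 to 1.97) in Wnt9b cells, and Ano1 with Piezo2 shared 1 cell against 0.784 and 2 against 3.29. The pairs with an interval away from 1 in a zone were Slc4a4 with Gria2 in Gjb2/Gjb6 cells (0 cells against 4.46) and Slc12a2 with Slc4a4 in Wnt9b cells (1.20, 1.02 to 1.41).

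Most epithelial cells carried few of the 7 genes. After thinning, 18.1% had a UMI of none, 50.5% of 1, 25.6% of 2, 5.40% of 3 and 0.416% of 4 or more. Pthlh cells had the most, with a mean of 1.55 members and 4.73% without any, and Shh cells the fewest among the zones, with a mean of 0.980 and 31.3% without any.

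**Figure D4:**
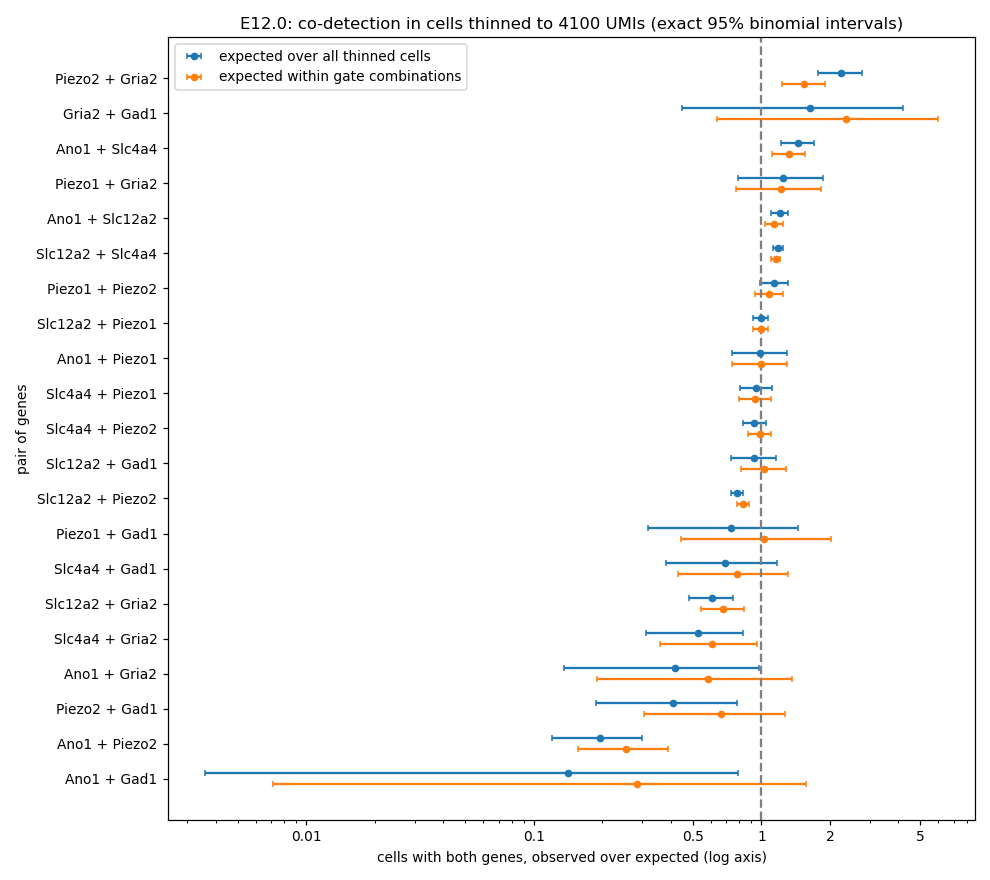
Joint detection of the 21 pairs of members in 10331 E12.0 cells thinned to 4100 UMIs, as the number of cells with both over the number from the product of the single shares, on a log axis. Bars are exact 95% intervals of the joint share divided by that product. Piezo2 with Gria2 lies highest above 1 at 2.23, and Ano1 with Piezo2 lies at 0.195 with its whole interval below 1.

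At E9.5, epithelium was taken as cells with at least 3 UMIs of Epcam and Cdh1 and at most 1 of Twist1, Prrx1, Prrx2 and Pdgfra together (2278 cells), and mesenchyme as cells with at least 3 of the latter and none of Epcam, Cdh1, Cdh5 or Pecam1 and at most 1 of Sox10 (5087 cells). The 6 epithelial markers summed to 1809 CPM in the first and 74.9 in the second, and the 6 mesenchymal markers to 38.5 and 1398 CPM. Their median depths were 12341 and 14793 UMIs. By the same ratio, here without a minimum CPM for the members, 2 of the 7 genes were higher in epithelium and none lower. Over all genes that reached 5 CPM on either side, the shares were 14.8% and 5.39%. Nothing is read from this member count either.

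Slc12a2 was at 61.2 CPM in E9.5 epithelium (58.4 to 64.1) and 25.4 in mesenchyme (24.3 to 26.6), a fold of 2.41 (2.25 to 2.57), and Slc4a4 at 21.5 (19.9 to 23.3) and 11.4 CPM (10.7 to 12.3), a fold of 1.88 (1.69 to 2.09). With an epithelial gate of 1 Epcam UMI the Slc4a4 ratio was 1.44, short of the 1.5 that was counted. Piezo1 was at 18.5 and 13.1 CPM, which fell short of the ratio. Ano1 was at 2.45 and 0.193 CPM (71 and 14 UMIs) and Piezo2 at 4.31 and 2.33 CPM, and with 5 CPM added their ratios were 1.43 and 1.27. With 1 CPM added these were 2.89 and 1.59, and both would be counted. Gad1 and Gria2 were all but absent from the counts, with 3 and 1 UMIs in the epithelium and 22 and 13 in the mesenchyme.

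The highest E9.5 levels of Slc12a2, Piezo1, Piezo2 and Gria2 were in neither tissue but in the 260 cells with at least 3 UMIs of Cdh5 and Pecam1, whose 3 endothelial markers summed to 881 CPM. They had 95.5 CPM of Slc12a2 (86.2 to 106), 55.6 of Piezo1 (48.5 to 63.4), 21.1 of Piezo2 (16.8 to 26.1) and 3.72 of Gria2 (2.08 to 6.14, 15 UMIs), and 4.71 CPM of Slc4a4, below both tissues. Their 5 neuron markers summed to 55.8 CPM against 9.65 over all kept E9.5 cells, and 6.92% of them were called doublets; the part of either in the Gria2 level was not tested. The 522 cells with Tcf21 or Msc UMIs, transcription factors of muscle precursors, 282 of which are also in the mesenchyme, had 54.8 CPM of Slc12a2 and 6.94 of Piezo2. The 607 Sox10 cells, at 22.1 CPM of Slc12a2 and 13.7 of Piezo1, stood near the mesenchyme.

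Within E9.5 epithelium, no cell reached the gate of Pthlh or Dmrt2 and 4 reached that of Gjb2/Gjb6. The gates of Irx1, Wnt9b and Shh held 209, 116 and 44 cells. The 116 Wnt9b cells had 4.43 CPM of Piezo2 (1.78 to 9.13) against 4.30 in the other epithelium. The 209 Irx1 cells had 55.7 CPM of Slc12a2 (47.6 to 64.8) against 61.9. The higher levels of these 2 genes in the same gates at E12.0 were thus not seen here, at median depths of 12935.5 and 14081 UMIs. The study finds Irx1 in most ectodermal cells at E9.5 and uses Shh there as a marker of oropharyngeal endoderm. The same gates may therefore hold other kinds of cells than at E12.0. The Wnt9b cells held no Ano1 UMI (upper limit 2.33 CPM) against 2.59 CPM, a ratio of 0.659 with 5 CPM added, which is lower as at E12.0 but with both sides under 5 CPM, and Slc4a4 was at 12.7 against 22.0 CPM, a ratio of 0.653. The 44 Shh cells held no Gad1 UMI, where 3 UMIs, the limit a count of 0 allows, would be 4.90 CPM and the exact upper limit is 6.03 CPM. Foxa2/Pax1 cells, the gate for endoderm, had 3.4 CPM of Ano1 from 9 UMIs. Slc12a2 was at 71.7 CPM in Foxa2/Pax1, 65.4 in Vgll2, 63.0 in Tfap2b and 46.7 CPM in Sfn cells. None of the 21 pairs of members had a joint detection away from 1 in the E9.5 epithelium, but many rested on too few cells to show one. After thinning, no cell there held a Gria2 UMI and 1 held a Gad1 UMI, so the pairs of these genes could not be judged. Ano1 was in 23 cells, and its pair with Slc12a2 had 2 cells against 4.82 expected. For Slc12a2 with Slc4a4 the interval of 0.800 to 1.48 also held the E12.0 ratio of 1.18. Whether the E12.0 pairing was absent at E9.5 was thus not decided.

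Between stages, 6 of the 7 genes were higher in the E12.0 cells than in E9.5 epithelium and none lower. Over all genes that reached 5 CPM on either side, a level that Gad1 did not reach, the shares were 27.4% and 13.2%. Nothing is read from this member count, since regional level in the same cells chose the members. Stage cannot be told apart from library, sort, enzyme, depth, gene list and the Cell Ranger version named in the matrix headers. The E9.5 gate also includes endoderm. Slc12a2 was at 499.9 against 61.2 CPM, a fold of 8.16 (7.78 to 8.57), and Piezo2 at 61.4 against 4.31 CPM, a fold of 14.3 (11.9 to 17.2). Ano1 was at 16.5 against 2.45 CPM (6.73-fold, 5.30 to 8.67) and Slc4a4 at 50.7 against 21.5 CPM (2.36-fold, 2.16 to 2.57).

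Gad1 was at 3.37 CPM against 3 UMIs at E9.5, a ratio of 32.6 with a counting interval of 11 to 159, and Gria2 at 6.48 CPM against 1 UMI, a ratio of 188 with an interval of 33.6 to 7435. Piezo1 was the member that was not counted, at 22.5 (21.5 to 23.6) against 18.5 CPM (17.0 to 20.2), a fold of 1.22 (1.10 to 1.34). Among the groups read, its highest level was in the E9.5 Cdh5/Pecam1 cells.

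**Figure D5:**
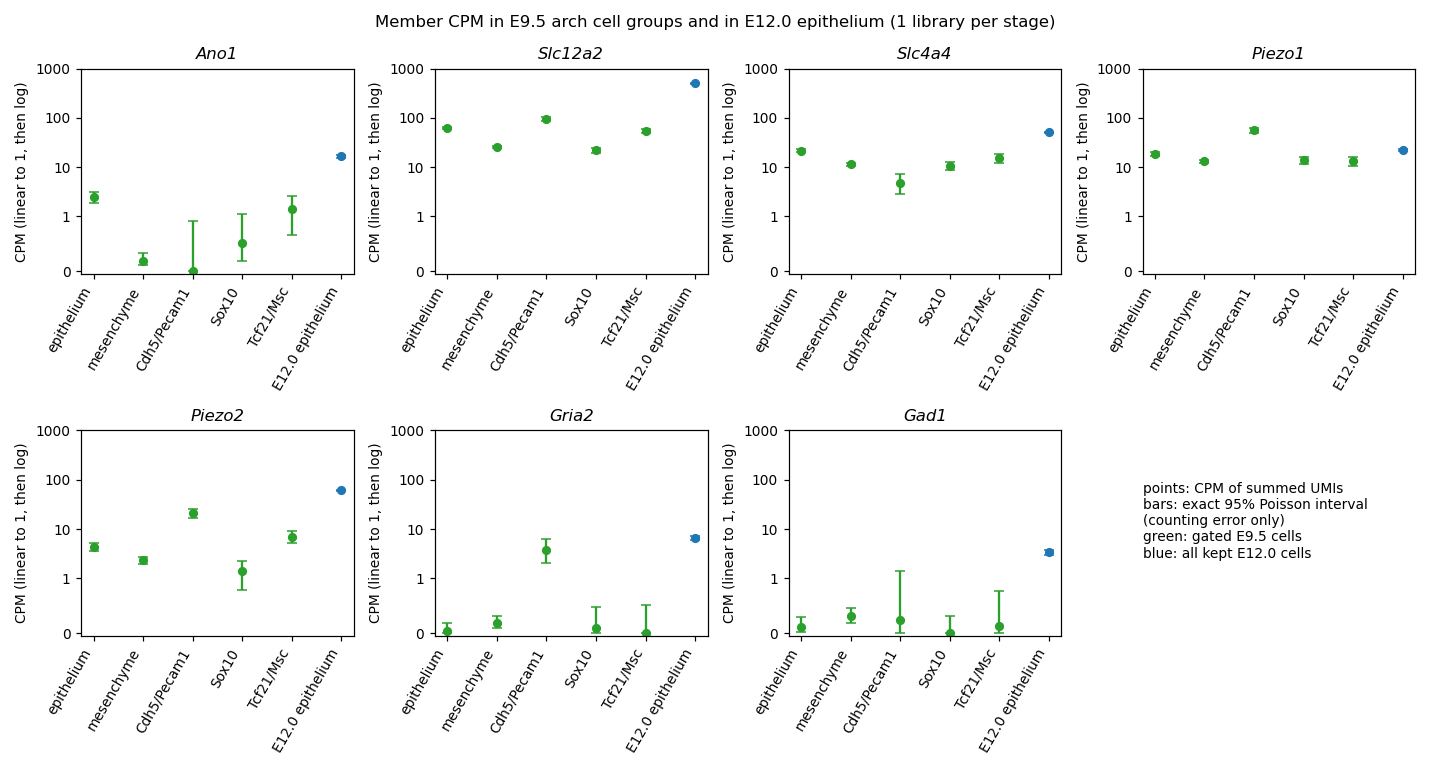
Level of the 7 genes (CPM of summed UMIs, log-like axis, exact 95% Poisson intervals) in groups of E9.5 cells and in all kept E12.0 cells. Slc12a2 goes from 25.4 CPM in E9.5 mesenchyme and 61.2 in E9.5 epithelium to 499.9 at E12.0, and Piezo1 from 13.1 and 18.5 to 22.5 CPM with 55.6 in Cdh5/Pecam1 cells.

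Relatives of the members were read to see which other family genes were measured at E12.0. Besides Ano1, Ano6 had 48.7 CPM and its highest zone was Gjb2/Gjb6 at 70.5 CPM, where Ano1 was lowest. Of the cation-chloride cotransporters, Slc12a4 and Slc12a7, which carry potassium and chloride out of cells, had 30.9 and 19.1 CPM, and Slc12a1, the kidney NKCC2, had 0 UMIs. Slc4a7, Slc4a2 and Slc4a3 had 75.5, 37.6 and 32.2 CPM, and the red cell exchanger Slc4a1 0 UMIs. Of the AMPA receptor genes, Gria3 had 16.8 CPM and was highest in Gjb2/Gjb6 cells at 23.8, Gria4 had 2.18 CPM and Gria1 0 UMIs. Gad2, the other glutamate decarboxylase, had 5 UMIs, and Slc32a1, the vesicular GABA transporter, 1 UMI.

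A list of 295 channel and transporter genes in 11 classes, of which 294 were found at E12.0, gave the setting. Besides the members, 94 were high enough to be counted, and 25 of these (26.6%) were higher in at least 1 zone, beside 13.2% of all genes. The list and the gates were chosen with earlier results of these data known. Nothing is therefore read from this share, or from the counts by zone and class that follow. By zone, 5 were higher and 7 lower of 76 in Gjb2/Gjb6 cells, 6 and 1 of 74 in Wnt9b, 4 and 3 of 79 in Pthlh, 13 and 7 of 85 in Shh, 3 and 9 of 74 in Irx1 and 2 and 11 of 75 in Dmrt2 cells. The median log2 ratio of the list ran from -0.09 in Gjb2/Gjb6 to 0.06 in Pthlh cells, and that of all genes from -0.02 to 0.02.

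In the Gjb2/Gjb6 zone, where Piezo2 and Gria2 were higher, the listed genes with the largest ratios were Kcnj2, an inward-rectifier potassium channel, at 28.0 CPM against 5.60 (5.00-fold, 4.17 to 5.98), Cnih2, an AMPA receptor partner, at 37.6 against 17.7 and the sulfate transporter Slc26a2 at 94.8 against 56.7 CPM. In Wnt9b cells they were Cacnb4, a calcium channel subunit, at 11.4 against 4.15, Cacng4, an AMPA receptor partner, at 89.9 against 47.3 and the epithelial sodium channel subunit Scnn1g at 12.6 against 5.33 CPM. The glutamate receptor class of the list, which also holds receptor partners and Adarb1, had 8 genes measured. Of these, 5 were higher in at least 1 zone, beside 13.2% of all genes. They were Gria2, which is a member, Cacng4, Cnih2, Grm8 and, in Shh cells only, Grik2 (ratio 1.76 with 5 CPM added). The 1 aquaporin measured was not higher in any zone. Of 18 chloride channel genes, 3 were (Ano1, which is a member, Lrrc8c and Lrrc8d), beside the same 13.2%.

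In Shh cells, besides Gad1, Atp1b1, a subunit of the sodium-potassium pump, was at 102 CPM (88.8 to 117) against 8.52, a fold of 12.0 (10.2 to 14.0), Orai2, a store-operated calcium channel, at 44.8 against 11.5 and the cation channel Trpc4 at 12.0 against 1.19 CPM. In Pthlh cells the potassium channel genes Kcnmb4 (63.4 against 37.1 CPM) and Kcnh1 (15.3 against 7.69) were joined by Orai2 (22.6 against 12.2). In Irx1 cells the volume-regulated anion channel subunits Lrrc8c and Lrrc8d were at 26.0 against 12.8 and 59.5 against 32.8 CPM, with Atp1b1 at 22.4 against 10.1. In Dmrt2 cells, beside Ano1, the pump regulator Fxyd3 was at 93.3 against 53.4 CPM.

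In E9.5, 31 of 66 listed genes other than the members were higher in epithelium than in mesenchyme and 5 lower, beside 14.8% and 5.39% of all genes. Between stages, 40 of 83 were higher at E12.0 and 12 lower, beside 27.4% and 13.2% of all genes. Nothing is read from these list counts either, since the list was chosen with earlier results of these data known.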

How the data were processed

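The authors deposited a matrix of raw UMI counts for each library, built by Cell Ranger from 10x Genomics reads and limited to barcodes it called as cells. The file headers name versions 3.1.0 (E12.0) and 6.1.2 (E9.5) and the submitters' processing notes version 2.0.0, with builds mm10 and GRCm38. The 2 gene lists share 27514 genes by identifier. Groups came from the age labels.

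The 7 genes, the gates and the gene lists were chosen with earlier results of these data known. The rule for genes named was all members, their family relatives, per zone the listed genes with the largest ratios (up to 3, at least 10 CPM and a UMI in 5% of cells), and the 3 genes most like each member; class leaders of the list by CPM were also found, and the few named stand under their class. A UMI of either gate gene counted toward paired gates. Cells of E12.0 with more than 5500 genes numbered 14. Counts were summed over cells of a group and divided by their total. Thinning drew 4100 UMIs per cell with seed 1, which left out 1024 shallower E12.0 cells. Thinned shares and joint detection kept zones gated at full depth, while thinned zone ratios and calls also used gates read from thinned UMIs. Doublets were called with Scrublet in scanpy 1.11.5 (661 cells at E12.0 and 331 at E9.5) and kept. Because each stage is 1 library, no test between groups was made. Python 3.11.15, numpy 2.4.6, scipy 1.17.1, pandas 2.3.3 and matplotlib 3.10.9 were used. Ratios of summed counts and their intervals were tested on simulated Poisson counts, which lack the spread between cells seen here. Thinning was checked for the depth it left. Gating, joint detection and the search for like genes were not tested on simulated data. The kept cells had 503 to 21712 UMIs at E12.0 and 500 to 40102 at E9.5, so precision depends on the size of a group. Promoter windows were matched by symbol in RefSeq for 5 of the 7 genes. Alternatives changed gates, comparison cells, depth, weighting, filters, pseudocount and fold. Results for some listed genes are left out of the text.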

Additional observations from a re-analysis of the deposited data

How the results depend on the processing

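No paired analysis was possible because each stage is 1 library, and for the same reason no replicate could be left out and no value carries an error between animals. The 8 combinations of gene and zone called higher numbered between 6 and 9 under the 13 alternatives. Those lower numbered 14, and 9 at a 2-fold threshold, by its construction, and 12 to 15 under the other settings, though not always with the same pairs. At most 5% mitochondrial counts lost Gria2 in Pthlh, Shh, Irx1 and Dmrt2 cells, gates of 1 UMI Gria2 in Pthlh and Piezo1 in Shh cells, gates of 3 UMIs Gria2 in Pthlh cells and thinning Gria2 in Pthlh and Dmrt2 cells. Slc12a2 in Irx1 cells was no longer higher against cells in no zone or at 2-fold, and Slc4a4 in Pthlh cells not after thinning or at 2-fold. Listed genes higher in at least 1 zone numbered 25, but 16 with gates of 1 UMI, 45 with gates of 3 UMIs, 59 with thinned cells and 9 at 2-fold. The thinned setting also read the gates from thinned UMIs, and 110 listed genes then reached the minimum against 94. The share of all genes was not counted under these settings, so a change of the list cannot be told from a change over all genes. Gria2 in Pthlh cells, from 2 UMIs, went to a ratio of 1.00 with gates of 1 UMI. Pairs with joint detection away from 1 numbered 11, 5 where a cell needed 2 UMIs per gene and 7 with at most 5% mitochondrial counts. That limit left out most kept E12.0 cells. Not all of those 5 and 7 pairs were among the 11. With 2 UMIs of each gene, Ano1 with Slc4a4 went to 0.394, Slc4a4 with Gria2 to 1.02 and Piezo2 with Gad1 to 1.78. Members apart between E9.5 epithelium and mesenchyme numbered 2, but 1 with an epithelial gate of 1 Epcam UMI, 4 with 1 CPM added in place of 5 and 1 at 2-fold. Beyond the changes that a setting's construction gives, the cause was not tested. Leaving out barcodes found in both libraries, an alternative chosen after seeing the data, changed no count. Of the single values behind these counts, 208 of 286 for zones, 54 of 77 for joint detection, 55 of 70 for E9.5 tissues and 47 of 70 for stages moved by less than their counting interval, and 4 in all changed side. Depth limits Gria2 and Gad1 most, since zones other than their own hold few UMIs of them.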
